A study of Homo sapiens with 8 samples.

Results

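The question addressed here was which genes of BT-549 cells responded to EC359 and vorinostat together by more, or by less, than the sum of their responses to each drug alone. All 8 RNA-seq libraries of the series entered the comparison as a 2 by 2 design, 2 libraries in each of 4 groups. BT-549 is an established triple negative breast cancer (TNBC) cell line, grown here in RPMI medium with fetal bovine serum. The 4 groups were the solvent DMSO (vehicle), 100 nM EC359, 10 µM vorinostat, and the combination of both drugs at these doses, and RNA was taken after 24 h. All groups were cells of this 1 line at 1 dose of each drug and 1 time, so no order of doses or times is held in these data. The methods of the study speak of biological replicates for in vitro assays as a whole. Nothing in the labels says that the 2 libraries of a group came from separate cultures, so the p-values measure the spread between these libraries, which may be technical.

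EC359 is a small molecule inhibitor of LIFR, the receptor of the cytokine LIF. LIF brings LIFR together with its partner chain IL6ST (gp130), the JAK kinases bound to them phosphorylate STAT3, and STAT3 induces genes such as its own inhibitor SOCS3. Vorinostat blocks the zinc-dependent histone deacetylases (HDAC), which raises the acetylation of histones and of other proteins and changes the transcription of many genes in both directions. Where 2 drugs act on a gene independently, their fold changes multiply and their log2 changes add up. The interaction reported here is the log2 change from vorinostat to the combination minus the log2 change from vehicle to EC359. A gene above the sum had a higher level under both drugs than the added log2 changes give, and a gene below the sum a lower one. A gene can thus lie above the sum without being raised, when EC359 lowered it alone and no longer did so with vorinostat.

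Between 19069450 and 24759041 reads fell on genes in a library, and 13694 of 23228 listed genes passed the filter on low counts and were tested. The EC359 pair stood apart, with an SD across genes of 0.563 for the log2 difference of its libraries, against 0.349 for vehicle, 0.312 for vorinostat and 0.448 for the combination. Reads outside annotated genes made up 13.6% and 14.2% of unique alignments in the combination libraries and 11% to 12.6% in the others. Mesenchymal markers of the line were present. VIM lay between 2056 and 9442 CPM (read counts scaled to a common library total). FN1 lay between 1879 and 4588 CPM and CD44 between 763 and 2224 CPM. The hormone receptor genes ESR1 and PGR did not exceed 1.02 and 0.05 CPM. ERBB2, the gene of HER2, stood at 96.1 and 102 CPM with vehicle and 76.1 and 80.2 with EC359. ERBB2 was at 15.8 and 14.8 CPM with vorinostat and 12.03 and 12.6 with both drugs. The luminal markers KRT8 (1.33 and 9.19 CPM) and EPCAM (0.461 and 3.57 CPM) differed between the combination libraries. Transcript levels alone do not decide HER2 status, so the triple negative label was not tested. The adipocyte and muscle markers summed to 2.59 to 97.6 CPM, most of it FABP4. FABP4 stood at 2.64 and 2.57 CPM with vehicle, 3.75 and 2.59 with EC359, 30.3 and 28.4 with vorinostat and 89.5 and 96.2 with both drugs. The endothelial markers summed to at most 1.63 CPM, and 5 of 8 leukocyte markers stayed under 1 CPM in every library. The leukocyte markers together summed to 42.5 to 269 CPM, nearly all of it CD68, a lysosomal protein that other cells also make, at 47.3 and 39.8 CPM with vehicle, 202 and 120.2 with EC359, 71.8 and 72.7 with vorinostat and 222 and 267 with both drugs.

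The interaction was called, at an adjusted p under 0.01, for 288 genes, 222 above the sum and 66 below it (quasi-likelihood test of edgeR, adjusted by Benjamini-Hochberg over all tested genes). These were 2.1% of the tested genes, 1.62% above and 0.482% below, and 22.4% of the tested genes had an unadjusted p under 0.05. The median interaction was 1.32 among the genes above the sum, -1.22 among those below it and 0.02 over all tested genes. Of all tested genes, 51.5% had a positive interaction. An absolute interaction over 1 was reached by 169 of the genes above and 46 of those below the sum, and the smallest called was 0.61. Taking 1 library from each group in all 16 possible ways, the sign was the same every time for all 288 genes, as it was for 38.5% of the tested genes. On the linear CPM scale, where changes in CPM rather than folds are added, 217 of the 222 and 62 of the 66 genes departed in the same direction. Where each drug lowered a gene strongly, the added CPM can fall under 0, as for EPHA4 (-35.7), CXCR7 (-12.3) and CAV1 (-718). No level can reach such a value, so these genes could only depart above it.

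With DESeq2 in place of edgeR, 685 genes were called, 429 above and 256 below, so that 62.6% of the calls lay above the sum against 77.1% with edgeR. The number of calls also rested on single libraries. Without EC359 library 1 it was 1419 and without EC359 library 2 it was 1437, and each of these sets held all 288 genes. Without vehicle library 1 or 2 it was 71 and 65, without vorinostat library 1 or 2 it was 59 and 61, and without combination library 1 or 2 it was 55 and 63. The fits without a vehicle, vorinostat or combination library left the spread to be estimated with the EC359 pair and 2 other pairs. In every alternative fit all 288 genes kept their sign, and 53 of them, 43 above and 10 below, were called in all 16 alternative fits. These 53 are called robust in what follows. The alternative fits reuse the libraries that picked the 288 genes, so a kept sign or call is no independent support.

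**Figure D1:**
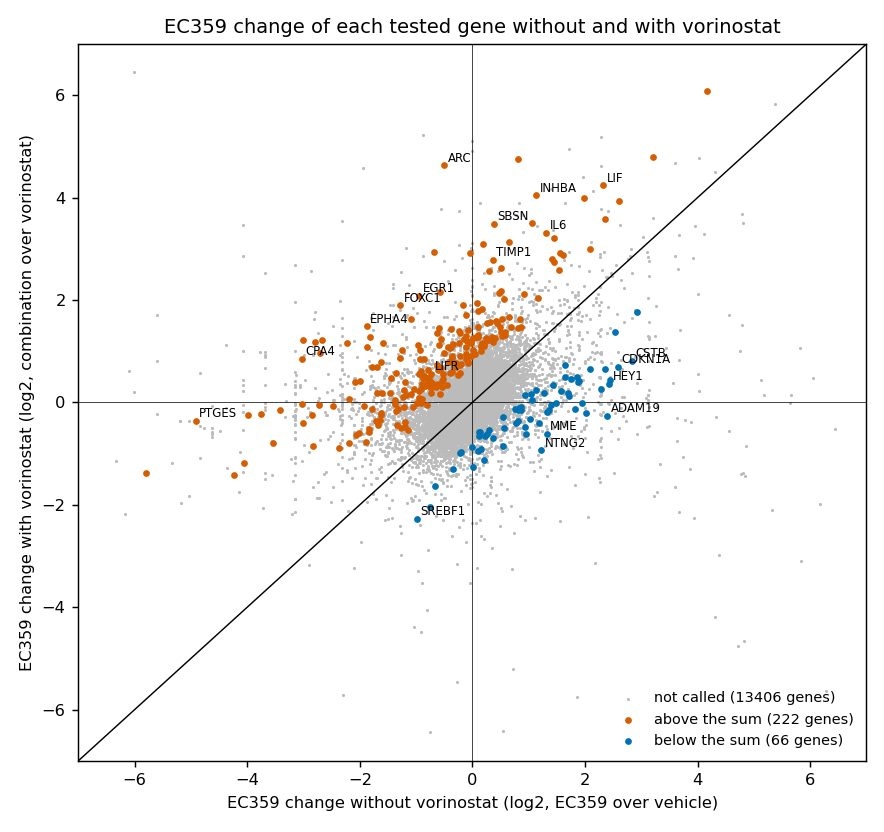
Each point is 1 of the 13694 tested genes, with its EC359 change without vorinostat (log2, EC359 over vehicle) on the x axis and with vorinostat (log2, combination over vorinostat) on the y axis. On the diagonal the log2 changes add up. The 222 genes called above the sum (orange) lie above it and the 66 called below (blue) lie under it, and 7 genes fall outside the axes.

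The genes fell into a few response patterns, counted by whether EC359 changed them at an adjusted p under 0.01 without and with vorinostat. Over all tested genes, EC359 alone raised 3.81% and lowered 4.01%, and EC359 added to vorinostat raised 8.45% and lowered 5.26%. Both changes are parts of the interaction itself, so these counts describe the calls and test nothing further. Among the genes above the sum, 82 were not called for EC359 alone and rose when it was added to vorinostat, and 29 rose in both settings. A further 71 fell with EC359 alone and were not called with vorinostat, 14 fell in both settings, and 25 fell alone but rose with vorinostat. Thus 110 of the 222 genes had a decrease under EC359 that was weaker, not called or turned round with vorinostat. Among the genes below the sum the most frequent pattern, in 35 genes, was a rise with EC359 alone and no called change with vorinostat. Another 15 were not called alone and fell with vorinostat, 9 rose and 3 fell in both settings, and 3 rose alone and fell with vorinostat. The median EC359 change was -0.57 alone and 0.87 with vorinostat for genes above the sum, and 1.05 alone and -0.16 with vorinostat for genes below it.

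**Figure D2:**
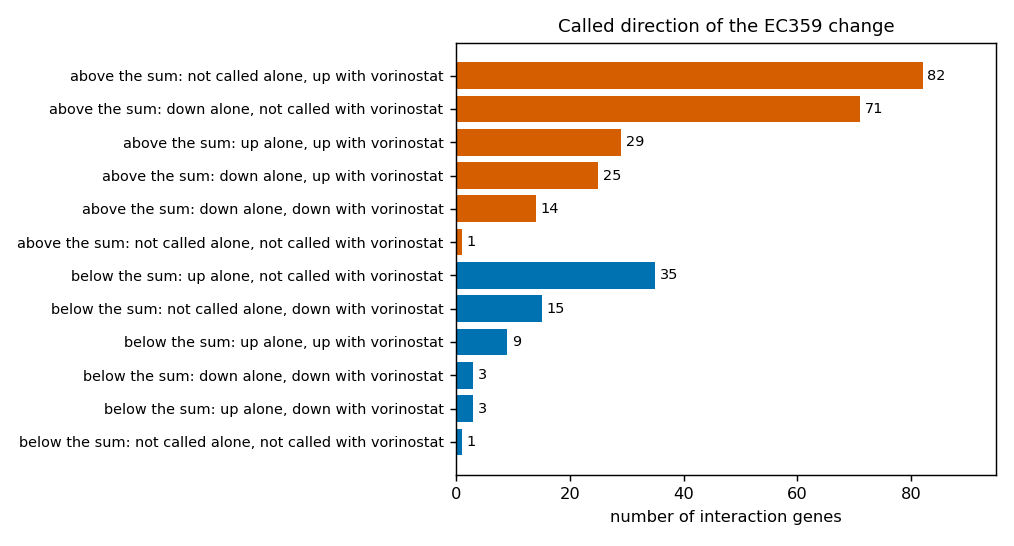
Bars count the interaction genes by the called direction of their EC359 change without and with vorinostat, orange for genes above and blue for genes below the sum. The tallest bars are the 82 genes above the sum that rose only in the presence of vorinostat by this threshold, the 71 whose decrease was not called with vorinostat, and the 35 below the sum whose increase was not called with it.

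Vorinostat alone raised 26.2% and lowered 25.9% of all tested genes, and with EC359 present it raised 29.5% and lowered 26.3%. Of the genes above the sum, 81 rose with vorinostat both without and with EC359, and 50 rose only where EC359 was present by the same threshold. Another 43 fell with vorinostat alone and were not called with EC359, 24 fell in both settings, and 24 fell alone and rose with EC359. Below the sum, 21 genes fell with vorinostat only in the presence of EC359, 20 fell in both settings, 10 rose in both, 10 rose alone and were not called with EC359, and 5 rose alone and fell with EC359. The single-drug estimates pointed in opposite directions for 90 of the 222 genes above and 31 of the 66 below the sum.

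Among robust genes of at least 3 on the average log2 CPM scale, CRISPLD2 had the highest interaction. CRISPLD2 (hg19 chr16:84853591-84954374, plus strand) encodes a secreted glycoprotein and is a known target of the glucocorticoid receptor. It stood at 45.3 and 51.3 CPM with vehicle, 3.46 and 2.59 with EC359, 248 and 251 with vorinostat and 202 and 218 with both drugs. EC359 alone took it below every other library, and with vorinostat the EC359 pair of values lay close to the vorinostat pair. The EC359 change was -3.98 alone and -0.25 with vorinostat (adjusted p = 0.132), and the interaction was 3.73 ± 0.18 (SE, log2, adjusted p = 2.32e-05). ANK1, an ankyrin that ties membrane proteins to the spectrin skeleton, stood at 113 and 106 CPM with vehicle, 8.49 and 7.66 with EC359, 6.33 and 4.93 with vorinostat and 4.09 and 5.46 with both drugs. Either drug alone lowered ANK1 close to the level of the combination, which lay far from the sum of -8.04, and its interaction was 3.53 ± 0.25 (adjusted p = 0.00013).

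In 3 other robust genes each drug lowered the level alone and the combination lay between the vorinostat and the vehicle pair. EPHA4 (hg19 chr2:222282747-222438922, minus strand), an ephrin receptor tyrosine kinase, stood at 89.3 and 80.3 CPM with vehicle, 24.6 and 21.5 with EC359, 25 and 27.1 with vorinostat and 72.2 and 74.2 with both drugs. Its single-drug groups lay next to each other and below both the vehicle and the combination libraries, with an interaction of 3.37 ± 0.16 (adjusted p = 2.30e-05). CXCR7, a scavenging receptor of the chemokine CXCL12, stood at 23.9 and 25.6 CPM with vehicle, 5.28 and 5.22 with EC359, 7.20 and 7.18 with vorinostat and 16 and 16.3 with both drugs, all 4 groups being apart, and had an interaction of 3.4 ± 0.19 (adjusted p = 5.95e-05). FOXC1, a forkhead transcription factor of mesenchymal development, was at 162 and 153 CPM with vehicle, 78.4 and 50.5 with EC359, 23.6 and 22.3 with vorinostat and 70.0 and 100.5 with both drugs, the combination pair overlapping the EC359 pair. EC359 raised FOXC1 by 1.89 on the log2 scale in the presence of vorinostat and lowered it by 1.29 in its absence, and the interaction was 3.18 ± 0.31 (adjusted p = 0.000707).

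A different pattern was a rise that appeared when both drugs were present. EGR1 (hg19 chr5:137801168-137804992, plus strand), an immediate early transcription factor induced by growth factor signals, stood at 42.1 and 32.9 CPM with vehicle, 22.8 and 16.1 with EC359, 74.1 and 80.7 with vorinostat and 298 and 356 with both drugs. It fell with EC359 alone, rose with vorinostat alone, and was highest in both combination libraries, with an interaction of 3.02 ± 0.26 (adjusted p = 0.000311). SBSN (suprabasin), a secreted protein of the upper epidermis, was at 1.51 and 1.78 CPM with vehicle, 2.39 and 1.88 with EC359, 2.73 and 2.76 with vorinostat and 30.8 and 30.7 with both drugs. Neither drug alone changed it at the threshold, and its interaction was 3.10 ± 0.28 (adjusted p = 0.000438). PKD1L2, of the polycystin family, stood at 4.77 and 4.95 CPM with vehicle, 1.20 and 1.47 with EC359, 10.8 and 10.8 with vorinostat and 21.9 and 23.9 with both drugs, with an interaction of 2.96 ± 0.24 (adjusted p = 0.000302).

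The remaining 4 of the 12 largest interactions above the sum, ARC, PTGES and CPA4 with few reads in some groups and MMP13, lost their call in 6 or 7 of the 16 alternative fits. They lost it without combination library 1 or 2, vorinostat library 1 or 2 or vehicle library 2, all but ARC also without vehicle library 1, and all but MMP13 under limma-voom. ARC, an immediate early gene of neurons, held 3 and 15 reads in the vehicle libraries, 4 and 9 with EC359, 294 and 402 with vorinostat and 7933 and 7731 with both drugs. The rise from vorinostat to the combination was 4.63 on the log2 scale and the interaction 5.14 ± 0.77 (adjusted p = 0.00577). PTGES, which makes prostaglandin E2, held 28 and 38 reads with vehicle and 0 and 2 with EC359, a ratio of 0.0294 with an exact 95% interval of 0.00348 to 0.110 that covers counting error only. With vorinostat PTGES stood at 38.8 and 36.9 CPM and with both drugs at 28.8 and 30.1 CPM, so that it was above the sum of log2 changes and below the sum of CPM changes. CPA4, a carboxypeptidase, held 39 and 34 reads with vehicle and 9 and 0 with EC359, a ratio of 0.119 (exact 95% interval 0.0525 to 0.239), with 2699 and 3228 reads with vorinostat and 5118 and 4646 with both drugs. Most of the rise in CPA4 was thus present with vorinostat alone, and the interaction ran from 3.04 to 9 over the 16 alternative fits. MMP13, a collagenase, was at 5.52 and 3.46 CPM with vehicle, 5.53 and 3.09 with EC359, 3.09 and 3.44 with vorinostat and 22.3 and 27.1 with both drugs, its combination libraries lying above the 6 others (interaction 2.96 ± 0.43, adjusted p = 0.00501).

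Below the sum, the most frequent picture was an EC359 induction that was missing in the presence of vorinostat. ADAM19 (hg19 chr5:156822542-157002783, minus strand), a membrane metalloprotease, stood at 27.1 and 26.7 CPM with vehicle, 152 and 131 with EC359, 26.1 and 24.7 with vorinostat and 20.8 and 21.6 with both drugs. Its EC359 libraries lay above the 6 others, and its interaction was -2.65 ± 0.15 (adjusted p = 6.97e-05). ADAM19 shares its locus with CYFIP2 and NIPAL4 on the opposite strand, and whether the counting used strand is not given in the sources used here. PLAU (hg19 chr10:75668935-75677254, plus strand), the urokinase that activates plasminogen, stood at 57.1 and 60.7 CPM with vehicle, 228 and 249 with EC359, 25.9 and 29.1 with vorinostat and 22.8 and 25 with both drugs, the EC359 libraries again being the highest, with an interaction of -2.22 ± 0.15 (adjusted p = 0.000123). MME, the peptidase neprilysin, was at 34.3 and 32.1 CPM with vehicle, 84.6 and 80.9 with EC359, 32.2 and 31.7 with vorinostat and 19.2 and 22.7 with both drugs, with an interaction of -1.93 ± 0.16 (adjusted p = 0.000311). In MME the induction was turned round: its EC359 change was 1.32 alone and -0.61 with vorinostat, both called.

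EC359 also reversed its direction for NTNG2, a netrin that guides axons (hg19 chr9:135037445-135119913, plus strand). NTNG2 stood at 23.4 and 24.8 CPM with vehicle, 51.8 and 60.5 with EC359, 13.7 and 12.5 with vorinostat and 6.91 and 6.74 with both drugs, the 4 groups being apart, so that EC359 raised it by 1.22 on the log2 scale alone and lowered it by 0.94 with vorinostat, and the interaction was -2.16 ± 0.19 (adjusted p = 0.000375). MMP14 (hg19 chr14:23305769-23318250, plus strand), the membrane-bound protease that activates MMP2, was raised by EC359 in both settings. It stood at 443 and 413 CPM with vehicle, 2318 and 2057 with EC359, 62.4 and 59.8 with vorinostat and 89.1 and 102 with both drugs, and the rise of 2.35 alone was 0.64 with vorinostat, giving an interaction of -1.71 ± 0.14 (adjusted p = 0.000302). These 5 genes below the sum were robust.

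CDKN1A (hg19 chr6:36644237-36655114, plus strand), the cyclin-dependent kinase inhibitor p21, was also robust and rose with each drug. It stood at 7.13 and 7.43 CPM with vehicle, 40.4 and 46.6 with EC359, 288 and 291 with vorinostat and 459 and 480.0 with both drugs, and no groups overlapped. The combination, which raised 29.7% and lowered 26.7% of all tested genes against vehicle, was the highest group, yet the log2 rise of 6.01 over vehicle was under the sum of 7.89, and the interaction was -1.88 ± 0.14 (adjusted p = 0.000177). On the linear CPM scale CDKN1A lay above the sum, so its direction depends on the scale. The other 6 of the 12 largest interactions below the sum were HEY1, ITGB3, CSTB, IL13RA2, CLMP and SNTB1, between -2.07 and -1.95 on the log2 scale. HEY1 is a Notch-induced repressor, ITGB3 the integrin beta 3 chain, CSTB a cathepsin inhibitor, IL13RA2 a decoy receptor of interleukin 13, CLMP an adhesion molecule and SNTB1 a syntrophin of the dystrophin complex. All rose with EC359 alone, and 5 of the 6 were not called for EC359 with vorinostat, CSTB being the exception with a rise of 0.81. The 6 lost their calls without vehicle, vorinostat or combination libraries, all in each of these 6 fits but for SNTB1, which kept its call without combination library 2.

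**Figure D3:**
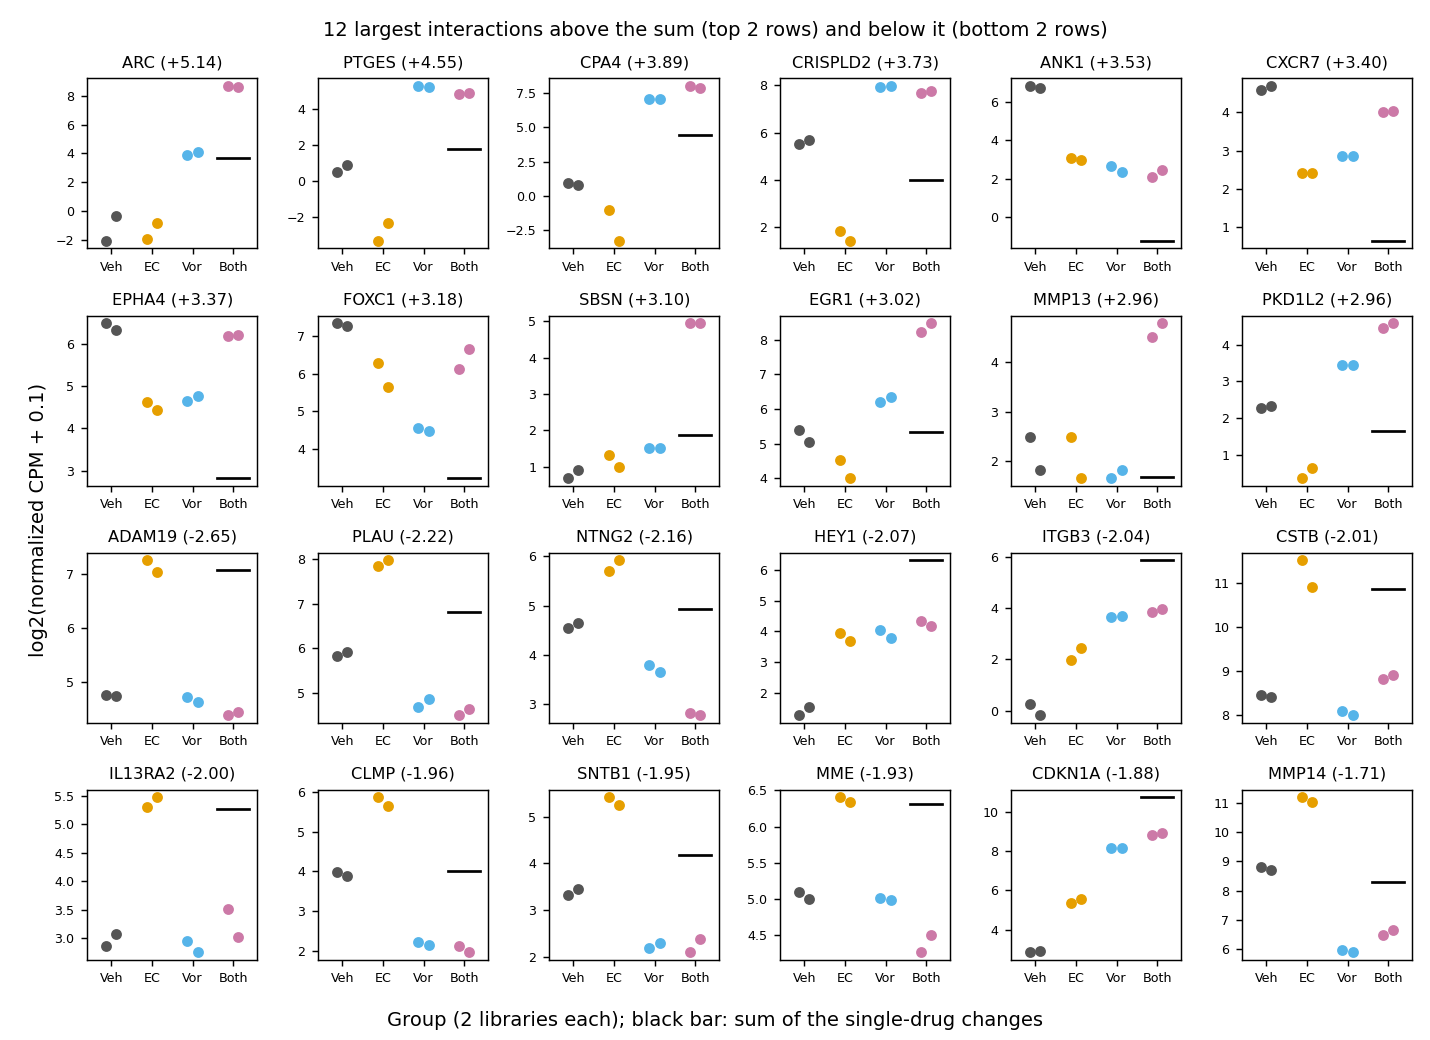
Panels show log2(normalized CPM + 0.1) of the 24 named genes in each library, vehicle (Veh), EC359 (EC), vorinostat (Vor) and both drugs (Both), 2 points a group, with the interaction in the title. The black bar is the sum of the single-drug changes computed from the group means. Both combination points lie over the bar in the top 2 rows and under it in the bottom 2 rows.

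The LIF and IL6 family held 12 tested genes, of which 4 were above the sum and 0 below it, with a median interaction of 0.19 that was 0.05 without EC359 library 1 and 0.63 without EC359 library 2. The share called above the sum over all tested genes was 1.62%. Among the ligands, LIF itself (hg19 chr22:30636442-30642748, minus strand) stood at 25.3 and 21.2 CPM with vehicle, 119 and 114 with EC359, 5.61 and 4.80 with vorinostat and 95.9 and 101 with both drugs. EC359 raised LIF by 2.32 alone and 4.24 with vorinostat, where it started from a lower level, and the interaction was 1.92 ± 0.17 (adjusted p = 0.000455). Added in CPM, the single-drug changes of LIF came to slightly more than the level seen with both drugs, so its departure holds on the log2 scale alone. IL6 (hg19 chr7:22765503-22771621, plus strand), the ligand that signals through IL6R and IL6ST, was at 5.33 and 5.42 CPM with vehicle, 14.3 and 12.4 with EC359, 12.3 and 11.2 with vorinostat and 114 and 120.4 with both drugs. The combination libraries of IL6 lay far above the 6 others, and the interaction was 2.00 ± 0.18 (adjusted p = 0.00041). IL6 overlaps STEAP1B on the opposite strand. The ligands CTF1 (-1.25 ± 0.40, adjusted p = 0.101), CLCF1 (-1.15 ± 0.37, adjusted p = 0.102) and IL11 (-1.28 ± 1.14, adjusted p = 0.576) were not called. OSM and CNTF did not pass the filter.

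Among the receptors, LIFR (hg19 chr5:38474770-38608456, minus strand), the target of EC359, stood at 23.4 and 28.0 CPM with vehicle, 16.7 and 14.1 with EC359, 80.3 and 81.0 with vorinostat and 118 and 119.5 with both drugs. The groups did not overlap: EC359 lowered LIFR by 0.74 on the log2 scale alone and raised it by 0.56 over vorinostat. The interaction was 1.29 ± 0.17 (adjusted p = 0.00354). IL6ST, the shared signalling chain, was at 225 and 212 CPM with vehicle, 339.8 and 272 with EC359, 624 and 646 with vorinostat and 1836 and 1669 with both drugs, with an interaction of 0.98 ± 0.16 (adjusted p = 0.00826). Values for the other receptor chains were 0.80 ± 0.15 for OSMR (adjusted p = 0.0152), -1.24 ± 0.30 for IL6R (adjusted p = 0.0415), 0.34 ± 0.28 for IL11RA (adjusted p = 0.547) and -0.03 ± 0.38 for CNTFR (adjusted p = 0.978), none of them called. LIF and IL6 were robust, whereas LIFR and IL6ST lost their calls in each of the 6 fits without a vehicle, vorinostat or combination library.

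Downstream of the receptors, STAT3 had an interaction of 0.36 ± 0.13 (adjusted p = 0.142) and was not called. SOCS3, the STAT3-induced inhibitor of JAK kinases, stood at 38.5 and 41.0 CPM with vehicle, 20.0 and 26.0 with EC359, 88.6 and 88.0 with vorinostat and 137 and 138 with both drugs. As for LIFR, the EC359 pair was the lowest and the combination pair the highest, and the interaction was 1.43 ± 0.18 (adjusted p = 0.00229), with the same 6 fits ending the call. Among 24 tested STAT3 feedback and induced genes, 5 were above and 1 below the sum, with a median of 0.30. The robust ones were TIMP1 and KLF4. TIMP1 (hg19 chrX:47441807-47446188, plus strand), an inhibitor of metalloproteases, was at 197 and 212 CPM with vehicle, 263 and 262 with EC359, 226 and 219.8 with vorinostat and 1572 and 1507 with both drugs. Neither drug alone changed TIMP1 at the threshold, while the combination exceeded every other library, and the interaction was 2.43 ± 0.11 (adjusted p = 2.30e-05). TIMP1 lies within SYN1 on the opposite strand. KLF4, a stem cell and epithelial transcription factor, fell with each drug and rose with both, from 66.8 and 66.8 CPM with vehicle, 32.1 and 38.5 with EC359, 52.3 and 45.4 with vorinostat and 102 and 98.0 with both drugs (interaction 1.95 ± 0.17, adjusted p = 0.000311). The member below the sum was BCL2L1, which encodes the survival protein BCL-XL, with an interaction of -0.84 ± 0.13 (adjusted p = 0.00692). BCL2L1 and IRF1, a further member above the sum, also lost their calls in those 6 fits and in 2 others each.

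Of 27 tested AP-1 and immediate early genes, 5 were above and 0 below the sum, with a median of 0.47 and 21 of the estimates positive. Over all tested genes, 1.62% were called above the sum and 51.5% had a positive estimate. The 5 AP-1 and immediate early genes above the sum were EGR1 and KLF4, described above, FOS, KLF6 and MAFF. MAFF, a small MAF protein without a transactivation domain, was at 19.2 and 21.6 CPM with vehicle, 81.9 and 79.7 with EC359, 11.1 and 11.4 with vorinostat and 169 and 187 with both drugs. EC359 raised it in both settings, more with vorinostat, and the interaction was 2.00 ± 0.15 (adjusted p = 0.000172). FOS, the partner of JUN in AP-1, stood at 12.7 and 9.76 CPM with vehicle, 7.55 and 7.76 with EC359, 98.4 and 105 with vorinostat and 243 and 237 with both drugs, with an interaction of 1.79 ± 0.18 (adjusted p = 0.000834) that was lost without vorinostat library 1 or combination library 1 or 2. KLF6, a zinc finger factor, had an interaction of 0.87 ± 0.13 (adjusted p = 0.00564), lost in each of the 6 fits without a vehicle, vorinostat or combination library. MAFF overlaps PLA2G6 on the opposite strand.

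Promoter sequences are shown for 4 genes above the sum that carry the letters of an AP-1 element in the 250 bases before their start. HSPA5, among others, also carries it, as TGAATCA at 184 bases. Below the sum, ITGA5 carries it as TGAGTCA at 6 bases and FST as TGATTCA at 160 bases. The printed sequences let a reader see the letters in genes whose levels are given here, and a link to AP-1 was not tested. The stretches are from RefSeq on GRCh38.p14, read 5′ to 3′ along the gene's strand, with the element TGANTCA, searched on both strands, in capitals.
CPA4 (chr7:130293081-130293160, plus strand): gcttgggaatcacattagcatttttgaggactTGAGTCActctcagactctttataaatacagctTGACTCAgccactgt
SBSN (chr19:35528362-35528501, minus strand): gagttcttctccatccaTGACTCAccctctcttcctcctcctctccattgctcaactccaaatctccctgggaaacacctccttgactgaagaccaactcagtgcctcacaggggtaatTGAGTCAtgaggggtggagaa
IL8 (chr4:73740409-73740468, plus strand): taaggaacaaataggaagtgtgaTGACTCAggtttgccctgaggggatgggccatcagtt
DDIT3 (chr12:57520705-57520764, minus strand): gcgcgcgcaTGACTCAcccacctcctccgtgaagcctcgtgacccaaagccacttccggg
CPA4 held the element at 48 and 15 bases before its start and SBSN at 173 and 71 bases. IL8 held it at 137 bases and DDIT3 at 241 bases before the start. The element occurs in 7.76% of the 27305 promoters of the table and in 4.45% of the tested genes with an entry. Its letters were found for 20 of 176 genes above and 2 of 52 genes below the sum that matched the table. Matches covered under 80% of either set, so a comparison of these shares is void.

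The next 3 stretches hold the cyclic AMP response element TGACGTCA in genes above the sum, and the last one the C/EBP-ATF composite element TGATGNAA, printed as its reverse complement, in the stress gene HERPUD1. Capitals mark the element.
MAFF (chr22:38201914-38201973, plus strand): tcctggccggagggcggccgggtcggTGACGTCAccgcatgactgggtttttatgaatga
VGF (chr7:101165620-101165679, minus strand): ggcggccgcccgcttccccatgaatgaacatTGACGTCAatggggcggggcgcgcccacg
FN1 (chr2:215436219-215436278, minus strand): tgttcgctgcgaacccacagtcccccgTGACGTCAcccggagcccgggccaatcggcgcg
HERPUD1 (chr16:56931942-56932001, plus strand): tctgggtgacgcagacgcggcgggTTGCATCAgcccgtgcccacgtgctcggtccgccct
The first of these elements lies in 1.98% and the second in 3.67% of all promoters of the table, and in 3.25% and 1.73% of the tested genes with an entry. Among matched genes, TGACGTCA was in 7 of 176 above and 1 of 52 below the sum, and TGATGNAA in 5 and 0. Neither element overlaps TGANTCA in its letters, and a match shows letters, not binding. The other elements searched were CCAAT in 70 and 24 genes above and below, TTCNNNGAA in 13 and 1, CACGTG in 26 and 4, GAANNTTC in 7 and 3, and TGACNNNGC, which can overlap TGANTCA, in 27 and 9. Their shares among all promoters of the table were 35.7%, 7.88%, 7.43%, 6.87% and 13.6%, and among the tested genes with an entry 37.1%, 6.46%, 9.98%, 4.64% and 15.1%.

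The NF-kB list of chemokines, cytokines and feedback genes had 6 of 21 tested genes above the sum and 0 below it, with the highest median of any list apart from the small plasminogen and GADD45 lists, 0.75. Over all tested genes, 1.62% were called above the sum. IL8, a neutrophil chemokine, stood at 38.2 and 37.8 CPM with vehicle, 339 and 362 with EC359, 38.5 and 39.8 with vorinostat and 1137 and 1039 with both drugs. EC359 raised IL8 strongly alone and vorinostat did not change it, but the rise over vorinostat was 4.80 against 3.20 over vehicle, and the interaction was 1.59 ± 0.12 (adjusted p = 0.0002). CSF1, the growth factor of macrophages, went the other way in level: 168 and 158 CPM with vehicle, 70.8 and 66.4 with EC359, 4.32 and 4.38 with vorinostat and 7.68 and 10.0 with both drugs. It was lowest with vorinostat, and EC359 lowered it alone but raised it with vorinostat (interaction 2.27 ± 0.19, adjusted p = 0.000311). CXCL3 (1.22 ± 0.17) and CXCL5 (0.91 ± 0.14), both neutrophil chemokines, completed the list with LIF and IL6. LIF, IL6, IL8 and CSF1 were robust. CXCL3 shares long stretches with CXCL1 and CXCL2, so its reads are uncertain, and CXCL5 lay below the sum when CPM were added. Both lost their calls in the same 6 fits. Interferon-stimulated genes had a median of 0.47 over 24 tested (0.83 without vorinostat library 2), and IRF1, a transcription factor of that response, was above the sum (1.30 ± 0.19, adjusted p = 0.00549).

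Called genes of the TGF-beta and EGFR family lists lay above the sum. INHBA (hg19 chr7:41706766-41745432, minus strand), the subunit of activin A, stood at 151 and 144 CPM with vehicle, 377 and 270.5 with EC359, 179.7 and 189 with vorinostat and 2946 and 3142 with both drugs. Its combination libraries were more than 7 times every other library, and the interaction was 2.91 ± 0.20 (adjusted p = 0.000123). CTGF, a matrix protein induced by TGF-beta and YAP, was at 328 and 307 CPM with vehicle, 219.7 and 202 with EC359, 826 and 796 with vorinostat and 1749.7 and 1801 with both drugs, lowered by EC359 alone and raised by it with vorinostat (interaction 1.72 ± 0.12, adjusted p = 0.000123). With PMEPA1, an inhibitor of SMAD signalling (1.30 ± 0.19, adjusted p = 0.00503), 3 of 19 TGF-beta genes were above the sum and 0 below it, median 0.47. In the EGFR family, the ligands NRG1 (1.66 ± 0.21, adjusted p = 0.00264) and HBEGF (1.01 ± 0.15, adjusted p = 0.00652) were above the sum. All 8 tested members of that list had a positive estimate, as had 51.5% of all tested genes. The list median of 0.37 was 0.01 without combination library 2 and 0.91 without EC359 library 1. The insulin pathway had IGF1R (1.5 ± 0.16, adjusted p = 0.00116), PIK3R3 (1.42 ± 0.12, adjusted p = 0.000311) and IRS1 (0.98 ± 0.15, adjusted p = 0.00716) above the sum and the kinase AKT1 (-0.75 ± 0.12, adjusted p = 0.00817) below it, among 26 tested PI3K, mTOR and FOXO genes with a median of -0.02. INHBA, CTGF and PIK3R3 were robust, and the other 6 named here lost their calls in the 6 fits without a vehicle, vorinostat or combination library. The 21 tested ERK feedback genes held no call, with a median of 0.17 that was 0.0067 without combination library 1.

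ID genes and BMP targets had a median EC359 change of -0.86 alone and -0.65 with vorinostat, and a median interaction of 0.49 that was 0.01 without combination library 2. Of 13 tested, 2 were above the sum and 0 below it. ATOH8, a BMP-induced bHLH factor, had 334 and 382 reads with vehicle, 9 and 4 with EC359, 47 and 35 with vorinostat and 18 and 11 with both drugs. EC359 reduced ATOH8 to 0.0176 of vehicle (exact 95% interval 0.00932 to 0.0303, counting error only). With vorinostat its EC359 change was -1.37 on the log2 scale (interaction 4.43 ± 0.57, adjusted p = 0.00298). SMAD6, the inhibitory SMAD of BMP signalling, had an interaction of 1.12 ± 0.18 (adjusted p = 0.00838). SMAD6 lost its call in 9 fits, among them the 6 without a vehicle, vorinostat or combination library, and ATOH8 in all of these but that without vorinostat library 1. ID1, ID2 and ID3, inhibitors of bHLH factors, were not called, with interactions of -0.24 ± 0.17 (adjusted p = 0.456), 0.76 ± 0.14 (adjusted p = 0.0128) and 0.65 ± 0.19 (adjusted p = 0.0803). ID3, for example, stood at 342 and 373 CPM with vehicle, 68.9 and 94.6 with EC359, 872 and 865 with vorinostat and 304 and 318 with both drugs, so that EC359 lowered it from either starting level.

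Matrix and protease genes were called in both directions. Of 13 tested metalloprotease and TIMP genes, MMP13, TIMP1 and MMP3 were above the sum and MMP14 below it, with a median of 0.42 that was -0.0014 without vehicle library 2. MMP3, stromelysin 1, stood at 1.32 and 2.06 CPM with vehicle, 30.9 and 29.6 with EC359, 1.90 and 2.34 with vorinostat and 146 and 145 with both drugs. EC359 induced MMP3 in both settings, by 4.16 alone and 6.09 with vorinostat, and the interaction was 1.93 ± 0.26 (adjusted p = 0.00404), lost under limma-voom and in all 6 fits without a vehicle, vorinostat or combination library except that without vehicle library 1. Of 8 tested plasminogen activators and serpins, PLAU was below the sum and SERPINB7 above it (1.25 ± 0.17, adjusted p = 0.00351). Integrins and laminins had 0 of 22 above and 3 below the sum, with a median of -0.36 and 17 negative estimates. Over all tested genes, 0.482% were called below the sum and 51.5% had a positive estimate. ITGA5, the fibronectin receptor chain, was at 65.1 and 62.0 CPM with vehicle, 132 and 127 with EC359, 64.9 and 67.6 with vorinostat and 53.9 and 52.2 with both drugs, its EC359 pair standing above the other groups (interaction -1.35 ± 0.13, adjusted p = 0.000555). LAMB3 (-1.29 ± 0.20, adjusted p = 0.00633) and ITGB3 (-2.04 ± 0.32, adjusted p = 0.00749) were the others. FN1, the ligand of ITGA5, went the opposite way: 2831 and 2396 CPM with vehicle, 2708 and 2153 with EC359, 1879 and 2039 with vorinostat and 4384 and 4588 with both drugs. Its combination libraries were the highest, with an interaction of 1.30 ± 0.17 (adjusted p = 0.00327). SNAI1, an EMT transcription factor, fell with EC359 alone from 63 and 66 reads to 27 and 14, and with vorinostat it stood at 66.5 and 65.3 CPM without and 67.9 and 81.4 CPM with EC359 (interaction 1.88 ± 0.27, adjusted p = 0.00501). These made 2 of 12 EMT genes above the sum. COL12A1 (0.96 ± 0.14, adjusted p = 0.00481) was the 1 of 20 collagens called. ITGA5 was robust, and SERPINB7, LAMB3, ITGB3, FN1, SNAI1 and COL12A1 lost their calls in the 6 fits without a vehicle, vorinostat or combination library.

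Stress genes were called in both directions, those of the unfolded protein response above the sum. DDIT3 (CHOP), a transcription factor of prolonged endoplasmic reticulum stress, stood at 24.0 and 25.6 CPM with vehicle, 35.4 and 33.8 with EC359, 35.3 and 36.5 with vorinostat and 167 and 150.2 with both drugs. Single-drug groups overlapped, the combination lay far above them, and the interaction was 1.66 ± 0.14 (adjusted p = 0.000311). DDIT3 overlaps MARS1 and MBD6 on the opposite strand. HSPA5 (BiP), the main chaperone of the endoplasmic reticulum, was at 1678 and 1699.8 CPM with vehicle, 1244 and 1355 with EC359, 5696 and 5732 with vorinostat and 12672 and 11544 with both drugs, lowered by EC359 alone and raised by it with vorinostat (interaction 1.46 ± 0.11, adjusted p = 0.000172). HERPUD1, a factor of protein degradation at that organelle, had an interaction of 1.23 ± 0.12 (adjusted p = 0.000834). HSPA5 and HERPUD1 were the 2 calls among 26 chaperone and unfolded protein response genes, whose median was 0.05. Of 34 integrated stress response genes, 3 were above the sum, DDIT3, STC2 (1.64 ± 0.14, adjusted p = 0.000302) and SESN2 (1.05 ± 0.15, adjusted p = 0.00541). The lipoprotein receptor VLDLR (-1.08 ± 0.14, adjusted p = 0.00306) and CBS of cysteine synthesis (-0.87 ± 0.13, adjusted p = 0.00588) were below it, and the median was -0.08. The 20 aminoacyl-tRNA synthetases and 21 heat shock genes held no call, with medians of -0.13 and -0.22. DDIT3, HSPA5 and STC2 were robust. HERPUD1 lost its call without vehicle library 2, vorinostat library 1 or 2 or combination library 1, and SESN2, VLDLR and CBS in all 6 fits without a vehicle, vorinostat or combination library.

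Growth arrest genes split. GADD45B, which activates stress kinases, was robust and stood at 36.1 and 34.1 CPM with vehicle, 12.6 and 16.1 with EC359, 61.3 and 60.1 with vorinostat and 110.1 and 112 with both drugs, with an interaction of 2.16 ± 0.17 (adjusted p = 0.000241). GADD45A was at 32.1 and 34.8 CPM with vehicle, 78.4 and 72.1 with EC359, 62.5 and 60.2 with vorinostat and 247 and 256 with both drugs, raised by EC359 in both settings, with an interaction of 0.87 ± 0.13 (adjusted p = 0.00652). Of 8 CDK inhibitors, CDKN1A was below the sum and CDKN1B (p27) above it, with an interaction of 0.78 ± 0.13 (adjusted p = 0.00865). CDKN1B fell with each drug, and the combined fall of 1.91 was smaller than the sum of -2.70. Redox genes also split, with TXNRD1, thioredoxin reductase (-0.95 ± 0.12, adjusted p = 0.00282), below the sum and the autophagy receptor SQSTM1 (0.61 ± 0.10, adjusted p = 0.00924) above it among 25 NRF2 targets. With SQSTM1, MAP1LC3B (0.79 ± 0.12, adjusted p = 0.00749), which coats autophagosomes, and CTSB, the lysosomal cathepsin B (0.64 ± 0.09, adjusted p = 0.00473), 3 of 26 lysosome and autophagy genes were above the sum, while the median of the list was -0.02. The calls of GADD45A, CDKN1B, TXNRD1, SQSTM1, MAP1LC3B and CTSB were lost in the 6 fits without a vehicle, vorinostat or combination library, and all but that of TXNRD1 in other fits too.

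Cholesterol synthesis and uptake genes had 5 of 24 above the sum and 0 below it, with a median of 0.64 and 20 positive estimates. Over all tested genes, 1.62% were called above the sum and 51.5% had a positive estimate. The median EC359 change of the list was -0.75 alone and -0.03 with vorinostat. DHCR7, the last enzyme of the pathway, stood at 244 and 235 CPM with vehicle, 116 and 132 with EC359, 234 and 237 with vorinostat and 242 and 260.1 with both drugs. Its EC359 libraries were the lowest and the other 3 groups overlapped, with an interaction of 1.05 ± 0.13 (adjusted p = 0.00269). HMGCS1, an early enzyme, was at 193 and 200.5 CPM with vehicle, 113 and 103 with EC359, 175 and 179 with vorinostat and 274 and 230.1 with both drugs, with an interaction of 1.37 ± 0.15 (adjusted p = 0.00125). MVK (1.35 ± 0.18), SC4MOL (1.20 ± 0.17) and INSIG1 (1.17 ± 0.14), the retention factor of the sterol sensor, were the other calls. All 5 lost their call in fits without a vehicle, vorinostat or combination library, each of the 6 except that HMGCS1 kept it without combination library 2. In fatty acid synthesis, SCD, the stearoyl-CoA desaturase (0.90 ± 0.11, adjusted p = 0.00188), and ACSS2, which makes acetyl-CoA from acetate (1.18 ± 0.16, adjusted p = 0.00373), were above the sum, and both lost their calls in the same 6 fits. SREBF1, the transcription factor of lipid synthesis, was below it. SREBF1 stood at 349.8 and 354 CPM with vehicle, 166 and 190.3 with EC359, 1462 and 1475 with vorinostat and 301 and 308 with both drugs, raised by vorinostat alone and returned by EC359 to under the vehicle level. Its EC359 change was -0.98 alone and -2.27 with vorinostat (interaction -1.29 ± 0.12, adjusted p = 0.000635), and the call was lost without combination library 1 or 2. SREBF1 overlaps RAI1, MVK overlaps MMAB and ACSS2 overlaps GGT7, each on the opposite strand.

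Energy genes leaned below the sum with few calls. Of 32 glycolysis and hypoxia genes, 26 had a negative estimate, with a median of -0.48 that ranged from -0.59 to -0.44 over the 16 alternative fits. Over all tested genes, 51.5% had a positive estimate and 0.482% were called below the sum. HK2, the first enzyme of glycolysis, was robust and stood at 65.1 and 63.0 CPM with vehicle, 236 and 235 with EC359, 120.4 and 128 with vorinostat and 169 and 159.5 with both drugs. It was highest with EC359 alone, and its interaction was -1.47 ± 0.12 (adjusted p = 0.000302). ALDOA, aldolase A, also lay below the sum (-0.70 ± 0.10, adjusted p = 0.00463), and SLC2A3, the glucose transporter GLUT3, above it (0.79 ± 0.11, adjusted p = 0.00407), and both lost their calls in the 6 fits without a vehicle, vorinostat or combination library. GAPDH, of the same pathway and often used as a reference gene, had an interaction of -0.49 ± 0.10 (adjusted p = 0.021), and ACTB, another reference gene, -0.19 ± 0.12 (adjusted p = 0.413). Of 25 nuclear respiratory chain genes 23 had a negative estimate, with a median of -0.34 (-0.41 to -0.13 over the alternative fits), and none was called. Copies of ALDOA, GAPDH and ACTB elsewhere in the genome leave their counts uncertain.

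The 13 genes of a list of RT-qPCR targets held 2 genes above the sum, LIFR and GADD45A, and 2 below it, CDKN1A and AURKA, with a median of 0.00. IL6ST, OSM and CNTF were also measured by RT-qPCR in the study, are given with the LIF family, and were not in this list, so that IL6ST is a further one above the sum. Most of the list, though not LIFR, was picked from these libraries and is not independent evidence. AURKA, a mitotic kinase, stood at 365 and 354 CPM with vehicle, 309.9 and 304 with EC359, 214 and 208 with vorinostat and 104 and 109 with both drugs. It was lowest in the combination, with an interaction of -0.75 ± 0.11 (adjusted p = 0.00588), and LIFR, GADD45A and AURKA lost their calls in the 6 fits without a vehicle, vorinostat or combination library. The mitotic genes CCNB1 (-0.39 ± 0.22, adjusted p = 0.331), KIF2C (-0.04 ± 0.17, adjusted p = 0.92) and UBE2S (-0.62 ± 0.17, adjusted p = 0.0611) were not called, nor was CDK4 (0.04 ± 0.31, adjusted p = 0.965). AURKA was the 1 call among 57 G2 and M phase genes, with a median of -0.04, and DTL, an adaptor of a ubiquitin ligase (0.85 ± 0.13, adjusted p = 0.00659), the 1 call among 44 S phase genes, with a median of 0.08. ATF3, a stress-induced factor, stood at 15.2 and 16.3 CPM with vehicle, 34.1 and 38.9 with EC359, 77.6 and 75.7 with vorinostat and 284 and 242 with both drugs, with an interaction of 0.57 ± 0.16 (adjusted p = 0.0751). The death receptor gene TNFRSF10B, which overlaps RHOBTB2 on the opposite strand, was at 76.5 and 78.6 CPM with vehicle, 148 and 196 with EC359, 222 and 223 with vorinostat and 543 and 445 with both drugs. Its log2 changes came close to the sum, with an interaction of 0.00 ± 0.21 (adjusted p = 1), which leaves room for a departure in either direction at this spread. None of 14 death receptor and adaptor genes and none of 15 caspase and IAP genes was called, and BCL2L1 was the 1 call of 19 BCL2 family genes.

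**Figure D4:**
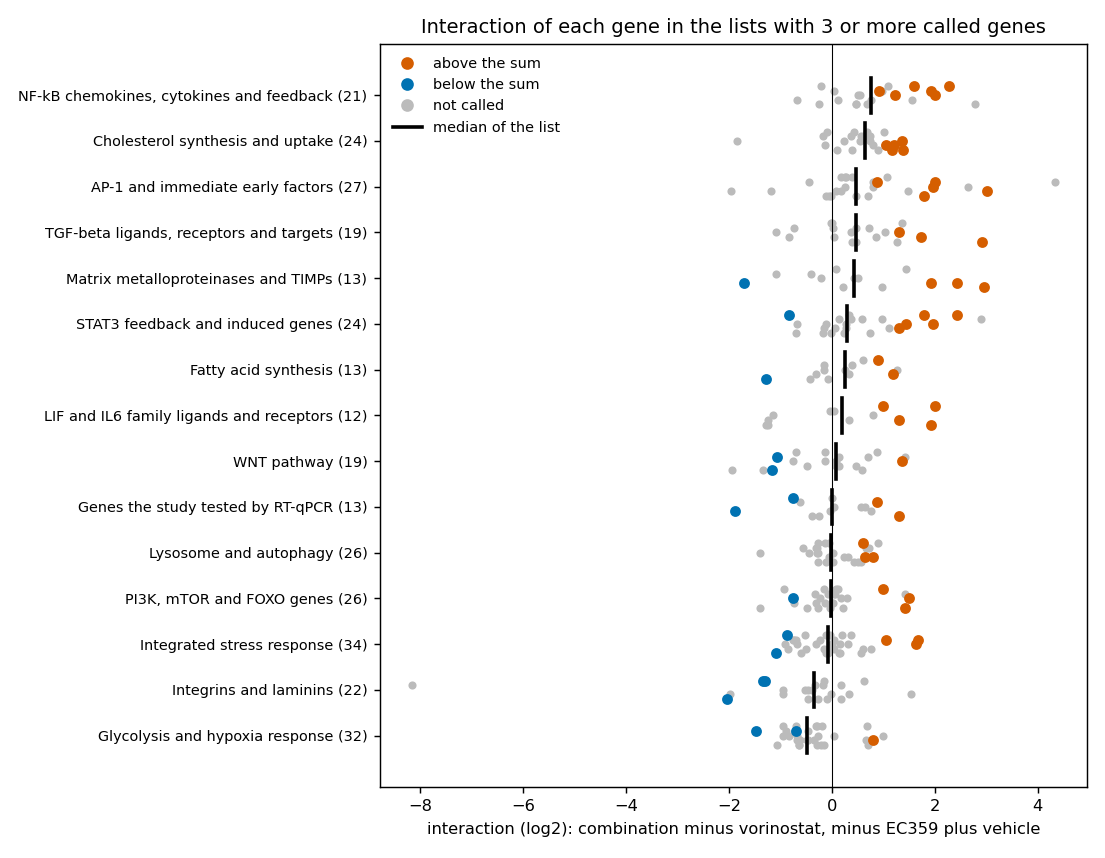
Each point is the interaction (log2) of 1 gene in the 15 lists with at least 3 called genes, orange above and blue below the sum and grey not called, and the black line is the median of the list, with the number of tested genes in parentheses. NF-kB and cholesterol genes have medians of 0.75 and 0.64, and integrin and glycolysis genes of -0.36 and -0.48, against 0.02 for all tested genes.

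WNT genes had DKK1, a secreted inhibitor (1.37 ± 0.19, adjusted p = 0.00463), above the sum and SFRP1, another inhibitor (-1.07 ± 0.13, adjusted p = 0.00188), and the receptor FZD8 (-1.17 ± 0.19, adjusted p = 0.0087) below it, of 19 tested with a median of 0.07. Single calls were TPM1 of 19 SRF and actin genes (0.82 ± 0.13, adjusted p = 0.00716), HEY1 of 16 Notch genes, CTGF of 19 YAP genes and VGF of 20 neuronal genes. VGF, a secreted neuropeptide precursor, stood at 54.9 and 61.8 CPM with vehicle, 57.2 and 74.3 with EC359, 178 and 170.5 with vorinostat and 615 and 622 with both drugs, with an interaction of 1.66 ± 0.18 (adjusted p = 0.0012). Glucocorticoid targets had SGK1, a serum-induced kinase (0.94 ± 0.11, adjusted p = 0.00214), and CRISPLD2 above the sum, of 11 tested. Of these, DKK1, SFRP1, FZD8, TPM1 and SGK1 lost their calls in each fit without a vehicle, vorinostat or combination library, and VGF in 5 of the 6. Over all 52 lists, 935 tested genes held 76 of the calls, 58 above and 18 below the sum, and 17 lists held none. Those 17 included 18 clock genes, 18 histone genes, 11 HDAC genes, 26 ribosome biogenesis genes, 25 DNA repair genes and 16 keratin and junction genes.

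Nearest to the threshold on its inner side were LOC642852 (1.00, adjusted p = 0.00987), ZNF669 (1.49, adjusted p = 0.00987) and PLS3 (-0.72, adjusted p = 0.00995). On its outer side were C17orf91 (0.96, adjusted p = 0.0101), SDC1 (-1.04, adjusted p = 0.0102) and ANTXR2 (-0.97, adjusted p = 0.0103). The values on both sides are alike, so a gene near the threshold is not told apart from its neighbours by its call.

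Some calls of named genes were also lost under another scaling or tool. With RLE factors these were CDKN1B, GADD45A, IL6ST, IRS1, LOC642852, MAP1LC3B, SMAD6, SQSTM1, TPM1 and ZNF669. With total counts they were CDKN1B, CTSB, DKK1, DTL, FZD8, IRF1, LOC642852, SESN2, SMAD6, SQSTM1 and ZNF669, and without a filter CDKN1B, LOC642852 and SQSTM1. Under limma-voom they were ARC, CPA4, CXCL3, FZD8, ITGB3, MMP3, PTGES and SNAI1, and with GC and length offsets BCL2L1 and CBS. List medians near 0 had no stable sign. Those of the integrated stress response, unfolded protein response, lysosome, PI3K, WNT, G2 and M phase and RT-qPCR lists fell on both sides of 0 over the alternative fits, between -0.21 (WNT, without combination library 2) and 0.22 (RT-qPCR, without EC359 library 2).

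**Figure D5:**
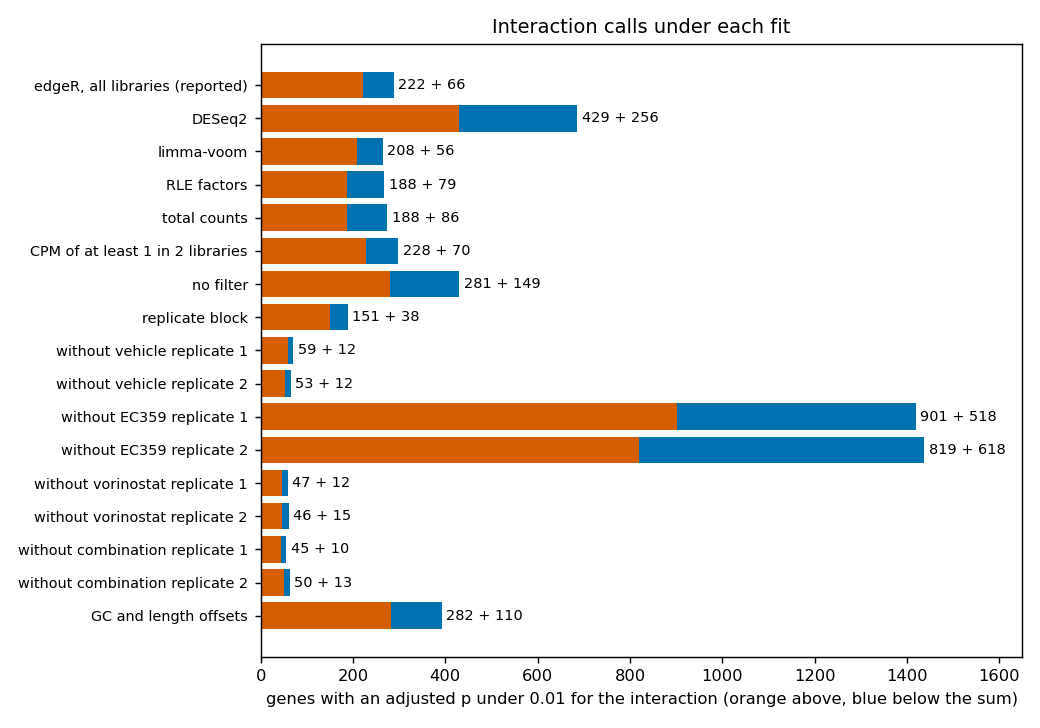
Bars count the genes with an adjusted p under 0.01 for the interaction under the reported fit and 16 alternative fits, orange above and blue below the sum, with both counts printed. Fits without an EC359 library call 1419 and 1437 genes, and fits without a library of another group call 55 to 71.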

How the data were processed

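BT-549 RNA was sequenced in 8 libraries, 2 each for vehicle, EC359, vorinostat and the combination, with 50 bp single-end reads. The deposited values are raw read counts per gene symbol and library, made by the authors with TopHat2 2.0.8b on hg19 and HTSeq, without normalization. The strand setting is not given in the sources used here, so genes that overlap on opposite strands cannot be told apart. The 5 summary lines of HTSeq name no gene and were left out. Those for reads on no gene or on several genes made up 11.9% to 14.9% of unique alignments.

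Genes passing filterByExpr in edgeR 4.0.16 (R 4.3.3) were scaled by TMM and fitted with 4 group means. The contrast (combination - vorinostat) - (EC359 - vehicle) was tested by the quasi-likelihood test of edgeR, with Benjamini-Hochberg adjustment over all tested genes, and called at an adjusted p under 0.01. The SE is the absolute log2 value divided by the square root of F. Fitted folds of genes near 0 depend on a prior count and are no bounds. CPM are TMM-normalized, and their precision follows the 19069450 to 24759041 counts per library.

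Named genes were the 12 largest interactions on each side among called genes whose average log2 CPM was 3 or more, with 1 sign over all 16 choices of 1 library per group. Further named genes were called members of 52 lists from general knowledge (up to 6 a list, some not reported here), the RT-qPCR genes, the LIF family, STAT3, SOCS3, GAPDH and ACTB, and the 3 genes nearest to the threshold on each side. These lists and rules, like the comparison itself, were chosen with earlier results of these data known. No list was tested: counts and medians are descriptions.

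Alternatives were DESeq2 1.42.0, limma-voom (limma 3.58.1), RLE and total-count scaling, 2 other filters, other thresholds, a replicate block and leaving out each library, after which the lone library of a group is assumed to vary like the other groups. Offsets for GC content and transcript length were added after seeing the data. The scripts were tested on simulated data. Coordinates came from GENCODE on GRCh37, the build of hg19, where 21319 of 23228 symbols matched (91.8%). Promoters came from RefSeq on GRCh38.p14 by symbol or synonym, for 10576 of 13694 tested genes. Figures were drawn with Python 3.11.15 and matplotlib 3.10.9.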

Additional observations from a re-analysis of the deposited data

Results flagged for a closer look

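The change that EC359 caused differed with and without vorinostat, by the test of the difference itself, for 288 genes (quasi-likelihood test of edgeR, adjusted by Benjamini-Hochberg). In 28 of these genes EC359 had a called change in both settings and in opposite directions, 25 falling alone and rising with vorinostat and 3 the reverse. EPHA4, CXCR7, FOXC1, EGR1, PKD1L2, KLF4, CTGF, GADD45B and LIFR, all above the sum, were among the 25, and NTNG2 and MME, below it, were among the 3.

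Reads that fell outside annotated genes, which no comparison uses, made up 13.6% of the unique alignments in one combination library and 14.2% in the other. Each is above both vehicle libraries, at 12.1% and 11%, and above the single-drug libraries. With 2 libraries a group, this difference was not tested.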

How the results depend on the processing

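All 288 genes with an interaction kept their sign in each of 16 alternative fits, and 53 were called in all of them. These fits reuse the libraries that picked the genes, so the kept signs are no independent support. Numbers of called genes are given in the order all, above, below. They were 264, 208 and 56 with limma-voom, 267, 188 and 79 with RLE factors, 274, 188 and 86 with total counts, and 298, 228 and 70 with a filter at 1 CPM in 2 libraries. DESeq2 gave 685, 429 and 256, no filter 430, 281 and 149, and GC and length offsets, added after seeing the data, 392, 282 and 110. An adjusted p under 0.05 gave 925, 642 and 283, and an absolute interaction over 1 in addition gave 215, 169 and 46. The causes of these differences were not tested. Leaving out 1 library moved the counts over a range of 55 to 1437 in all, 45 to 901 above and 10 to 618 below the sum. The high values came without an EC359 library (1419 and 1437) and the low ones without vehicle (71 and 65), vorinostat (59 and 61) or combination libraries (55 and 63). Of the 288 genes, 71 and 65, 59 and 58, and 55 and 62 were among them. The labels do not say whether libraries of the same number in different groups belong together. With the number as a replicate block 189 genes were called, 151 above and 38 below, of which 187 were among the 288. The named genes AKT1, ALDOA, AURKA, BCL2L1, CBS, CDKN1B, COL12A1, CTSB, CXCL5, DTL, GADD45A, HBEGF, IRF1, IRS1, ITGB3, KLF6, LAMB3, LOC642852, PLS3, PMEPA1, SLC2A3, SMAD6, SNAI1, SQSTM1, TPM1 and ZNF669 lost their calls with this block. Correlations of same-numbered deviations between groups ran from -0.173 to 0.231. On the linear scale 279 genes, 217 above and 62 below, departed the same way, which was fixed for genes whose added CPM fall under 0. Depth leaves genes of a few reads in a group, such as PTGES, without a firm fold.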

Other observations

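The families described here were put together after the values were seen, so their counts carry no test. Over all tested genes, 1.62% were called above and 0.482% below the sum. Not all of the families leaned above the sum. Of 20 tested ADAM and ADAMTS proteases and MME, 2 were above and 2 below it, with 14 negative estimates and a median of -0.20. Of 8 tested ephrin receptors, 2 were above and 0 below it, with a median of -0.13. Of 11 tested genes of prostaglandin synthesis and lipid droplets, 3 were above and 1 below it, with a median of 0.35. Of 21 tested G protein-coupled receptors for peptides, amines and lipids, 8 were above the sum and 1 below it, with a median interaction of 0.96. BDKRB1, the inducible bradykinin receptor, stood at 10.1 and 10.7 CPM with vehicle, 5.94 and 7.05 with EC359, 1.03 and 1.23 with vorinostat and 8.65 and 8.73 with both drugs. Vorinostat alone lowered it and the combination stood between EC359 alone and vehicle, with an interaction of 3.61 ± 0.27 (adjusted p = 0.000177, edgeR's quasi-likelihood test). The oxytocin receptor OXTR (1.59), the prostaglandin F receptor PTGFR (1.34), the adenosine receptor ADORA2A (1.34), the histamine receptor HRH1 (0.98), the angiotensin receptor AGTR1 (1.23) and the lipid receptor S1PR3 (0.98) were above the sum together with CXCR7. The gastrin-releasing peptide receptor GRPR (-1.57) was below it.

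PLIN2, the coat protein of lipid droplets, stood at 79.8 and 90.3 CPM with vehicle, 91.7 and 102 with EC359, 87.7 and 83.2 with vorinostat and 737 and 713 with both drugs. Only the combination libraries stood apart, and the interaction was 2.90 ± 0.14 (adjusted p = 2.30e-05). LPIN1, an enzyme of triglyceride synthesis, was above the sum by 1.21, and NCEH1, which hydrolyses cholesterol esters, below it by -1.35. Of 6 genes of caveolae, 3 were above the sum and 0 below it. CAV1, the main caveolin, stood at 2457 and 2479 CPM with vehicle, 1047 and 1115 with EC359, 680.2 and 659 with vorinostat and 489 and 475 with both drugs, falling with each drug and further with both, but by less than the sum (interaction 0.72 ± 0.10, adjusted p = 0.00507). PTRF (0.61) and SDPR (1.46), coat proteins of caveolae, were above the sum too.

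Genes with a zinc finger symbol (ZNF, ZFP, ZSCAN, ZKSCAN or ZIK and a number, without the ZFP36 group) leaned above the sum as a whole. Of 513 tested, 440 had a positive interaction, while 51.5% of all tested genes did. The median was 0.44 against 0.02 for all tested genes. Called were 7 above the sum and 0 below it, a share no higher than the 1.62% of all tested genes called above. In the reported fit the lean is thus in the estimates and not in the calls. Over all tested genes, 429 of 12849 were called above the sum with DESeq2 and 281 of 18516 without a filter. In both of these fits a higher share of the zinc finger genes was called. The number above the sum was 0 in each of the 6 fits without a vehicle, vorinostat or combination library, 101 and 68 without EC359 library 1 and 2, 33 with DESeq2 and 15 without a filter. The median lay between 0.37 and 0.53 over the 16 alternative fits, and it was 0.42 with offsets for GC content and transcript length. ZNF816, for example, stood at 12.5 and 12 CPM with vehicle, 9.57 and 11.5 with EC359, 9.21 and 9.99 with vorinostat and 24.3 and 25 with both drugs, its combination pair above the other libraries, with an interaction of 1.58 ± 0.20 (adjusted p = 0.00291). The share of reads outside annotated genes was also highest in the combination libraries, at 13.6% and 14.2%, and its part in this shift was not tested.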
